A study of Mus musculus with 4 samples.

Results

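The proteasome is the large protease that degrades ubiquitin-tagged proteins, and its genes were followed here in macrophages that carry or lack Batf2. The 38 genes were taken by name from a list of the 20S core, the immunosubunits, the 19S cap and the proteasome activators, and all 38 were found among the 24135 genes of the tables. They fall into 7 roles and had an FPKM (a read density per transcript length and per library) of at least 1 in all 4 libraries. The list was set by gene family rather than by value, but with earlier results of these data known.

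The 20S core is a barrel of alpha rings, which form the gate, and beta rings, which hold the catalytic sites. The 19S cap binds ubiquitin-tagged proteins, removes the ubiquitin, and unfolds the protein with a ring of ATPases. Interferon-gamma is known to induce the immunosubunits Psmb8, Psmb9 and Psmb10, which take the places of the catalytic subunits Psmb5, Psmb6 and Psmb7 in newly built cores and shift the peptides produced for MHC class I presentation. It also induces Psme1 and Psme2, which together form the activator PA28, a ring that can cap the core without the 19S complex.

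RNA was sequenced from bone marrow-derived macrophages of C57BL/6 mice, expanded for 6 days with GM-CSF (10 ng/ml) in 10% serum and taken as the adherent fraction. The 4 groups were Batf2-/- (KO) cells after 3 h of lipopolysaccharide (LPS, 100 ng/ml), Batf2+/+ (WT) cells after 3 h, KO cells at 0 h and WT cells at 0 h, with 1 library each. Per the labels every group, both genotypes and both times included, first received interferon-gamma (10 ng/ml) for 4 h, so no library without interferon-gamma was available for comparison here. Batf2 is a basic leucine zipper transcription factor, LPS is the bacterial ligand of Toll-like receptor 4, and the ages and number of the mice are not given in the labels. With 1 library per group there is no replicate spread, so no test was made, and the differences below compare these libraries.

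Batf2 itself had 10.1 FPKM in KO cells and 234 FPKM in WT cells at 3 h, and 0.26 FPKM in KO cells and 2.63 FPKM in WT cells at 0 h, in the direction of the labels, which do not say what part of the gene was deleted. Estimated depths were 30.7 (KO, 3 h), 20.3 (WT, 3 h), 28.0 (KO, 0 h) and 24.8 (WT, 0 h) in units of 1000000 reads. All 7 macrophage markers had at least 1 FPKM in every library, and the 3 T, B and NK cell markers summed to between 0.16 and 0.29 FPKM. All 7 neutrophil markers were detected in every library, none of them at 0, and summed to 4995 (KO, 3 h), 5251 (WT, 3 h), 8622 (KO, 0 h) and 3483 FPKM (WT, 0 h). The 4 stromal markers summed to 50.9, 32.5, 71.5 and 32.2 FPKM in the same order. The 6 dendritic markers summed to 542, 492, 565 and 577 FPKM, most of it Itgax, and the 3 mast and basophil markers to 18.5, 12.7, 8.93 and 3.90 FPKM. At 3 h the dendritic markers ranged from Clec9a, lower in KO cells (2.16 against 9.68 FPKM in WT cells), to Ccr7, higher in KO cells (35.2 against 18.2 FPKM). In such bulk cultures, fewer cells of a type and less RNA per cell cannot be told apart.

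Across the 38 genes the levels spanned 15.3-fold in KO cells and 17.0-fold in WT cells at 3 h, and 16.4-fold in KO cells and 19.2-fold in WT cells at 0 h. Psme1 was the highest of the 38 in both libraries at 3 h, with 216 FPKM in KO cells and 239.6 FPKM in WT cells. At 0 h the highest was Psmd8, a lid subunit of the 19S cap, with 205 FPKM in KO cells and 210.2 FPKM in WT cells. The median of the 38 lay close together in the 4 libraries, at 59.3 FPKM (KO, 3 h), 58.1 FPKM (WT, 3 h), 61.0 FPKM (KO, 0 h) and 57.7 FPKM (WT, 0 h). The plot of levels by library shows the 3 immunosubunits, Psme1 and Psme2 standing apart between the times, while each of the other genes differed by less than 2-fold between the times.

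**Figure D1:**
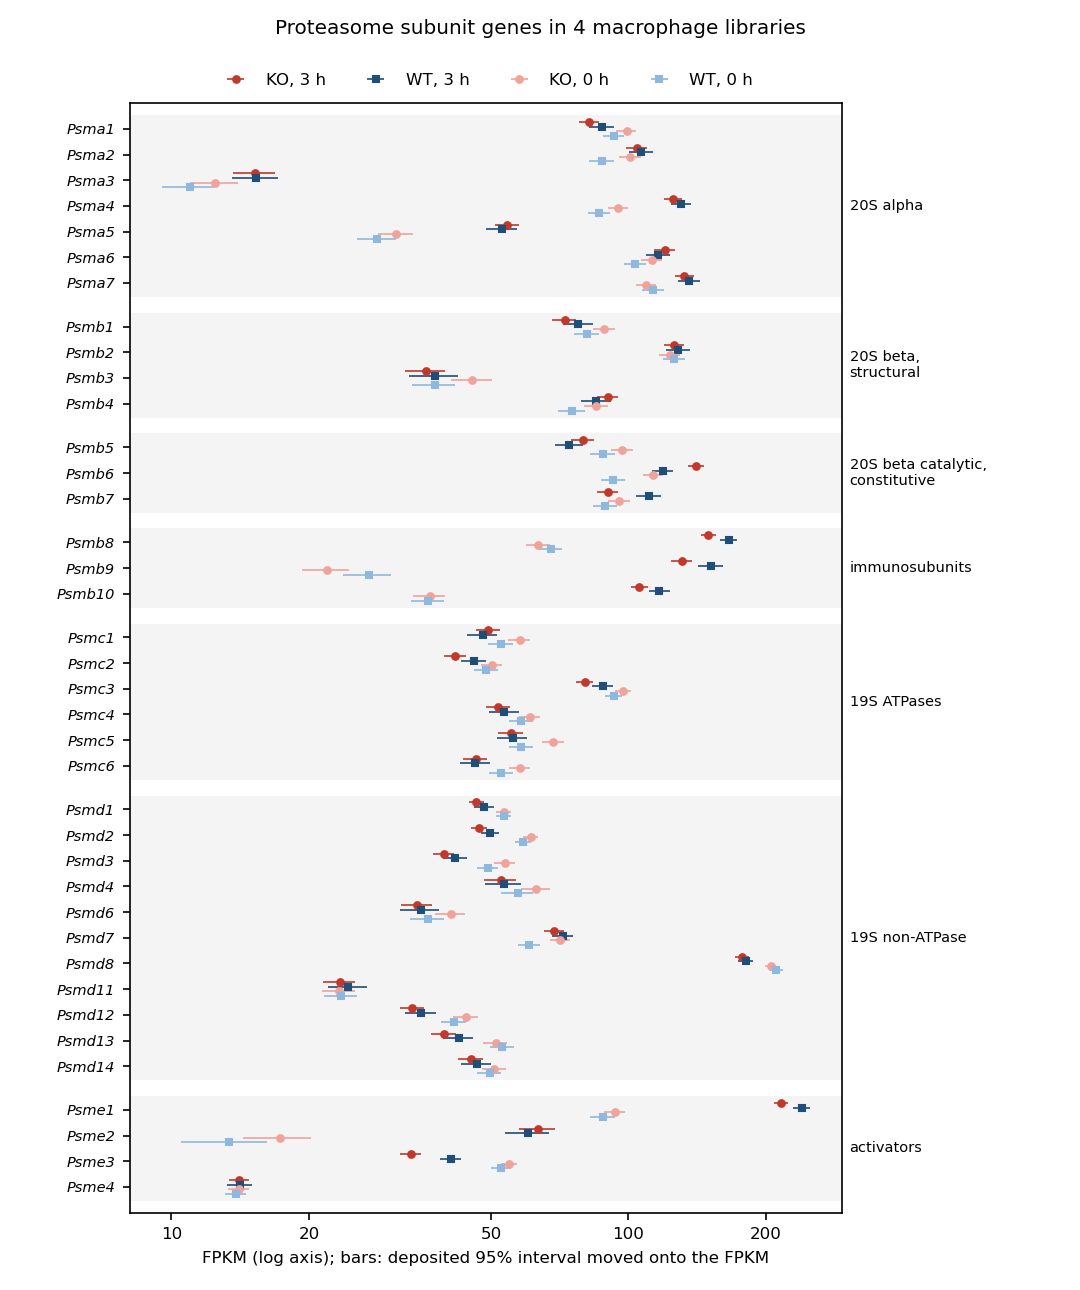
FPKM of the 38 proteasome genes (log axis), grouped by role, in KO and WT macrophages at 3 h and 0 h of LPS, 1 library per point; bars are the deposited 95% intervals, shifted to centre on each FPKM. For Psmb8, Psmb9, Psmb10, Psme1 and Psme2 both 3 h points lie above both 0 h points, with 131 FPKM (KO) and 151 FPKM (WT) at 3 h against 21.9 FPKM (KO) and 27.0 FPKM (WT) at 0 h for Psmb9.

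The first comparison sets 3 h against 0 h of LPS within each genotype, and this difference is called the LPS response here. Several interferon-gamma targets, given below, were also far lower at 0 h than at 3 h. Any part of interferon-gamma in these differences was not tested. A gene was counted as risen or fallen past a size rule: a difference of 1 or more in log2(FPKM + 1), an FPKM of 1 or more in either library, and deposited 95% intervals without overlap. The difference of 1 is close to 2-fold for genes of high FPKM and more than 2-fold for genes of low FPKM. Of the 38 genes, 5 rose in KO cells and 5 rose in WT cells, and they were the same 5: Psmb9, Psme2, Psmb10, Psmb8 and Psme1. None of the 38 fell in either genotype. Over all genes tested, 7.85% rose and 28% fell in KO cells, and 7.56% rose and 23.2% fell in WT cells.

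The 3 immunosubunits all rose. Psmb9, which replaces the caspase-like subunit Psmb6, had 131 FPKM at 3 h against 21.9 FPKM at 0 h in KO cells, and 151 FPKM at 3 h against 27.0 FPKM at 0 h in WT cells. Both 3 h libraries were far above both 0 h libraries, and the rise was 5.98-fold in KO cells (interval 5.25 to 6.80) and 5.60-fold in WT cells (4.90 to 6.41). These intervals cover counting error only.

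Psmb10, which replaces the trypsin-like subunit Psmb7, had 106 FPKM at 3 h against 36.7 FPKM at 0 h in KO cells, and 117 FPKM at 3 h against 36.4 FPKM at 0 h in WT cells. The rise was 2.88-fold (2.63 to 3.15) in KO cells and 3.21-fold (2.91 to 3.54) in WT cells. Psmb8, which replaces the chymotrypsin-like subunit Psmb5, started from the highest 0 h level of the 3. Its level was 149.6 FPKM at 3 h against 63.4 FPKM at 0 h in KO cells, and 166 FPKM at 3 h against 67.5 FPKM at 0 h in WT cells, a 2.36-fold (2.19 to 2.53) and a 2.46-fold (2.28 to 2.65) rise. The 3 immunosubunits thus spanned 2.90-fold in KO cells and 2.50-fold in WT cells at 0 h, but 1.42-fold in each genotype at 3 h.

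Psmb8 and Psmb9 are neighbours in the MHC region of chromosome 17 and lie on either side of Tap1, a subunit of the transporter that carries proteasome products into the endoplasmic reticulum. In RefSeq on GRCm38.p6, Psmb9 spans chr17:34182030-34187330 and Psmb8 spans chr17:34198195-34201454, with 10864 bases between them. Only 225 bases separate the start of Psmb9 from the start of Tap1, so this stretch precedes both genes, and 969 bases separate Tap1 from Psmb8. In GENCODE, 212 bases of the Psmb9 transcript also lie in a Tap1 transcript and 124 bases of the Psmb8 transcript in the antisense gene Gm20496, and the part of shared reads in the values was not tested. The stretches before the 2 genes are shown because both genes rose in both genotypes. The first is the 250 bases before the start of Psmb8 (chr17:34197945-34198194, plus strand, 55.6% G and C). The second is the whole stretch between Psmb9 and Tap1 (chr17:34187331-34187555, 61.3% G and C), read on the minus strand towards Psmb9. Neither stretch holds a match to the 4 motifs searched here, so no letter is in capitals.
Psmb8: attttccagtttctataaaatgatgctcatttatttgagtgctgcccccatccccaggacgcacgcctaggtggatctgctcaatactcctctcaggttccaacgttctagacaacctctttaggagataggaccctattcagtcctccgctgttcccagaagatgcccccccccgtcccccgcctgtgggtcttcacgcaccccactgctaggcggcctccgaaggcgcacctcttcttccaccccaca
Psmb9: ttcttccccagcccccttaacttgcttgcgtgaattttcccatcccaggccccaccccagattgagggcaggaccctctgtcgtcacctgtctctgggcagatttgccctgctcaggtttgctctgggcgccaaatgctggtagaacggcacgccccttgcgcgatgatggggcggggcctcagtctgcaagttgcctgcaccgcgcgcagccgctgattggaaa
Both are RefSeq sequences of GRCm38.p6, written 5′ to 3′.

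Motifs were searched on both strands in the 250 bases before the start of the 32 of the 38 genes that have a window, and in 32851 windows of all genes. The interferon-stimulated response element core (GAAA, any 2 bases, then GAAA) was in the windows of Psmb3 and Psmd4, which did not pass the size rule, and in 2.98% of all windows. The kappaB site (GGGA, any 4 bases, then CC) was in 9 of the 32 windows and in none of those of the 5 genes that rose, against 17.6% of all windows. The AP-1 site TGANTCA, the kind of site that basic leucine zipper factors bind, was in none of the 32 windows and in 6.75% of all windows. The antioxidant response element core TGACNNNGC, which can overlap an AP-1 site, was in the windows of Psmb5, Psmb6, Psmc6 and Psmd12, against 10.2% of all windows. A match describes the letters of these windows and was not tested as a binding site.

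Psmb10 lies on chromosome 8 (chr8:105935728-105938392), apart from the other immunosubunits. Psme1 (chr14:55578494-55581527) and Psme2 (chr14:55587440-55591101) lie on chromosome 14 with 5912 bases between them. The constitutive subunit Psmb5 is on the same chromosome, 960498 bases away from Psme1.

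The constitutive catalytic subunits did not share this rise, and none of them passed the size rule. Psmb5, the chymotrypsin-like subunit, had 79.5 FPKM at 3 h against 96.9 FPKM at 0 h in KO cells, and 74.2 FPKM at 3 h against 87.9 FPKM at 0 h in WT cells. Psmb6, the caspase-like subunit, had 141 FPKM at 3 h against 113 FPKM at 0 h in KO cells, and 119 FPKM at 3 h against 92.6 FPKM at 0 h in WT cells. Psmb7, the trypsin-like subunit, had 90.1 FPKM at 3 h against 95.5 FPKM at 0 h in KO cells, and 111 FPKM at 3 h against 89.0 FPKM at 0 h in WT cells. As deposited, Psmb5 was thus lower at 3 h and Psmb6 higher in both genotypes, and Psmb7 was lower in KO cells and higher in WT cells; with the libraries rescaled to a common median ratio all 3 were higher at 3 h in both.

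A ratio of 2 genes within a library does not depend on the scaling between libraries. The ratio of Psmb8 to Psmb5 was 1.88 (KO, 3 h), 2.24 (WT, 3 h), 0.65 (KO, 0 h) and 0.77 (WT, 0 h), so that the immunosubunit transcript exceeded its partner at 3 h and was below it at 0 h in both genotypes. Other genes match 88.4% of the Psmb5 transcript, so its reads, and with them this ratio, are uncertain. The ratio of Psmb9 to Psmb6 was 0.93, 1.27, 0.19 and 0.29 in the same order of libraries and passed 1 in WT cells at 3 h alone. For Psmb10 to Psmb7 it was 1.17, 1.05, 0.38 and 0.41.

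The ratio at 3 h over that at 0 h was 2.88 (2.58 to 3.21) in KO cells and 2.91 (2.58 to 3.28) in WT cells for Psmb8 to Psmb5. For Psmb9 to Psmb6 it was 4.81 (4.16 to 5.56) in KO cells and 4.36 (3.73 to 5.11) in WT cells, the largest of the 3 pairs in each genotype. For Psmb10 to Psmb7 it was 3.05 (2.71 to 3.43) in KO cells and 2.58 (2.26 to 2.94) in WT cells. Summed over the 6 catalytic subunits, immunosubunits made up 55.4% of the FPKM in KO cells and 58.8% in WT cells at 3 h, and 28.5% in KO cells and 32.7% in WT cells at 0 h. As deposited, the summed FPKM of the 3 constitutive subunits lay between 269 and 310.3 in the 4 libraries. That of the 3 immunosubunits was 386 (KO, 3 h), 434 (WT, 3 h), 122 (KO, 0 h) and 131 (WT, 0 h). These sums, unlike the ratios, depend on the scaling between libraries.

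**Figure D2:**
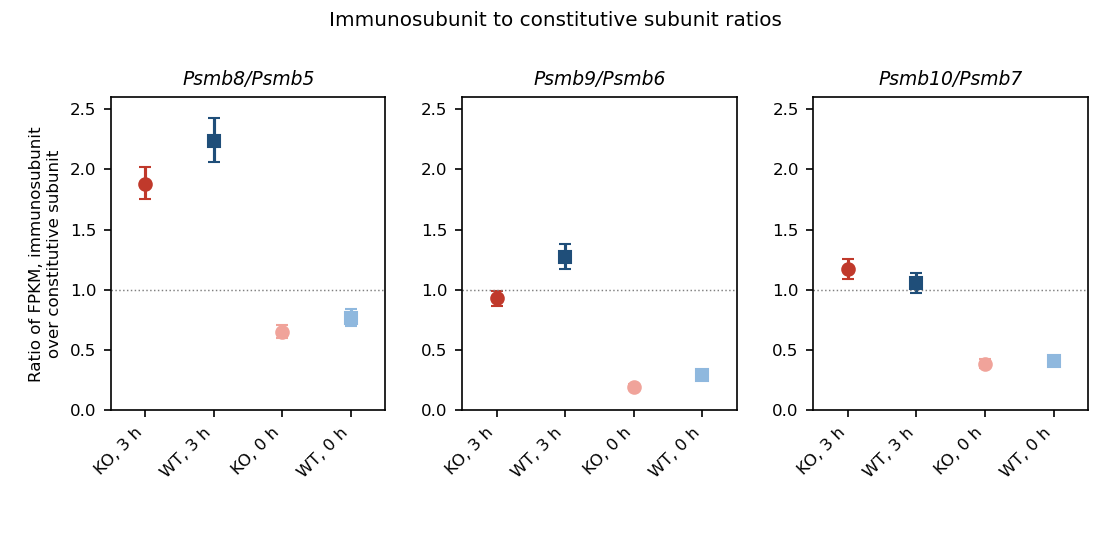
Ratio of immunosubunit to constitutive subunit FPKM (linear axis) for the 3 replaced pairs in each library; points are single libraries, bars are intervals combined from the deposited 95% intervals, and the dotted line marks equal FPKM. All 3 ratios are higher at 3 h than at 0 h in both genotypes, and the KO point lies below the WT point for Psmb9/Psmb6 at both times (0.93 against 1.27 at 3 h, 0.19 against 0.29 at 0 h).

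Among the activators, the PA28 genes Psme1 and Psme2 rose and the other activators did not. Psme1, the PA28 alpha subunit, had 216 FPKM at 3 h against 93.3 FPKM at 0 h in KO cells, and 239.6 FPKM at 3 h against 87.9 FPKM at 0 h in WT cells. That was a 2.31-fold (2.17 to 2.47) rise in KO cells and a 2.72-fold (2.53 to 2.93) rise in WT cells. Psme2, the PA28 beta subunit, had 63.4 FPKM at 3 h against 17.2 FPKM at 0 h in KO cells, and 60.4 FPKM at 3 h against 13.3 FPKM at 0 h in WT cells, a 3.68-fold (3.03 to 4.46) and a 4.52-fold (3.56 to 5.76) rise.

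Psme2 shares its reads with a near-identical copy. Psme2b on chromosome 11 matches 794 bases of the Psme2 transcript at 99.37% identity, 82.5% of its length, so how reads were split between the genes is uncertain. Psme2b was listed with 212 FPKM at 3 h against 60.0 FPKM at 0 h in KO cells, and with 213 FPKM at 3 h against 58.4 FPKM at 0 h in WT cells. The sum of both was 275 FPKM at 3 h against 77.2 FPKM at 0 h in KO cells, and 273 FPKM at 3 h against 71.8 FPKM at 0 h in WT cells. On this sum the rise was 3.56-fold in KO cells and 3.81-fold in WT cells, and Psme1 was 0.78-fold (KO) and 0.88-fold (WT) of it at 3 h, and 1.21-fold (KO) and 1.23-fold (WT) at 0 h. The Psme2 symbol alone would put Psme1 at 3.40-fold (KO) and 3.97-fold (WT) of Psme2 at 3 h.

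Psme3, the nuclear activator PA28 gamma, had 33.4 FPKM at 3 h against 54.8 FPKM at 0 h in KO cells, and 40.8 FPKM at 3 h against 52.7 FPKM at 0 h in WT cells. Its log2 difference was -0.70 in KO cells and -0.36 in WT cells, the lowest of the 38 genes in each, and it did not pass the size rule; rescaled to the median ratio it was -0.07 in KO cells and 0.17 in WT cells. Psme4, the activator PA200, had 14.1 FPKM in KO cells and 14.1 FPKM in WT cells at 3 h, and 14.1 FPKM in KO cells and 13.8 FPKM in WT cells at 0 h, and the 4 intervals overlap. Rescaled to the median ratio, its log2 difference between the times was 0.60 in KO cells and 0.53 in WT cells. The ratio of Psme1 to Psme3 was 6.45 (KO, 3 h), 5.87 (WT, 3 h), 1.70 (KO, 0 h) and 1.67 (WT, 0 h), a change by 3.79-fold in KO cells and 3.52-fold in WT cells between the times.

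**Figure D3:**
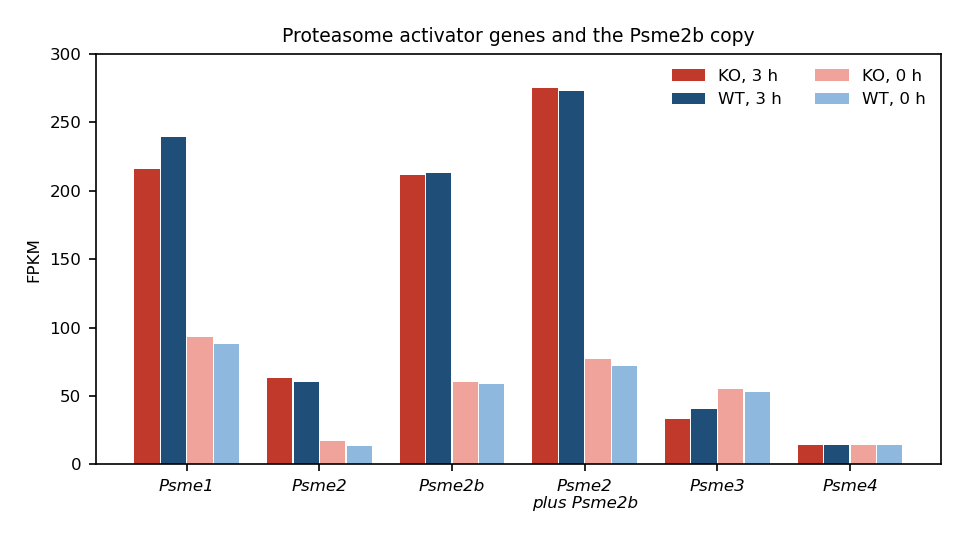
FPKM (linear axis from 0) of the activator genes, the Psme2b copy and the sum of Psme2 with it; each bar is 1 library, KO left of WT within a time. Psme1 and the summed Psme2 and Psme2b are higher at 3 h than at 0 h in both genotypes (275 against 77.2 FPKM for the sum in KO cells, 273 against 71.8 FPKM in WT cells), and the Psme4 bars are level.

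The remaining 33 genes moved less than 2-fold in both genotypes. The scale matters for their direction: the median of all genes tested was -0.64 (log2) in KO cells and -0.54 in WT cells at 3 h minus 0 h. The median over the 33 was -0.22 in KO cells and -0.06 in WT cells, which is 0.41 and 0.48 above the median of all genes. Rescaling the libraries by the median ratio turned 22 lower genes of the 33 in KO cells into 1, and 20 lower genes in WT cells into 0.

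The alpha subunits, which form the gated outer rings, were mostly higher at 3 h: 6 of 7 were higher in KO cells and 6 of 7 in WT cells as deposited, and all 7 in both when rescaled. Of all genes, 20.1% (KO) and 22% (WT) were higher as deposited and 45.7% (KO) and 46.1% (WT) when rescaled. Psma5 moved most, with 54.3 FPKM at 3 h against 31.0 FPKM at 0 h in KO cells, and 52.9 FPKM at 3 h against 28.2 FPKM at 0 h in WT cells. Both 3 h libraries stood above both 0 h libraries without overlap of intervals, by 1.75-fold (1.57 to 1.95) in KO cells and 1.88-fold (1.65 to 2.13) in WT cells. Psma4, part of the gate in yeast, had 125 FPKM at 3 h against 94.8 FPKM at 0 h in KO cells, and 130.5 FPKM at 3 h against 86.3 FPKM at 0 h in WT cells. Psma5 and Psma4 passed the size rule only after rescaling by the median ratio, with log2 differences of 1.42 and 1.04 in KO cells and 1.41 and 1.13 in WT cells, which made 7 genes risen in each genotype, against 13% (KO) and 11.9% (WT) of all genes. Of the 38 genes, 8 match transcripts of other genes over more than 50% of their own: Psma5 (76.5%), Psma4 (76.7%), Psmb3 (80.7%), Psmb5 (88.4%), Psmc1 (82.0%), Psmd2 (91.9%), Psmd11 (52.7%) and Psme2 (82.5%). Their reads may be shared with these copies, and how they were split is uncertain.

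Psma1 was the one alpha subunit lower at 3 h as deposited, with 82.0 FPKM at 3 h against 99.0 FPKM at 0 h in KO cells, and 87.4 FPKM at 3 h against 93.1 FPKM at 0 h in WT cells; when rescaled it was higher at 3 h. Psma2 had 104 FPKM at 3 h against 101 FPKM at 0 h in KO cells, and 107 FPKM at 3 h against 87.6 FPKM at 0 h in WT cells. Psma6 had 120.0 FPKM at 3 h against 112 FPKM at 0 h in KO cells, and 116 FPKM at 3 h against 104 FPKM at 0 h in WT cells. Psma7 had 133 FPKM at 3 h against 109 FPKM at 0 h in KO cells, and 136 FPKM at 3 h against 113 FPKM at 0 h in WT cells. Psma3, the lowest of the alpha subunits, lay between 11.0 and 15.3 FPKM in all 4 libraries. Transcripts of 8 other genes match parts of its transcript, together 32.5% of its length.

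The structural beta subunits, which hold the inner rings together without catalytic sites, differed little between the times. Psmb2 had 126 FPKM at 3 h against 123 FPKM at 0 h in KO cells, and 129 FPKM at 3 h against 126 FPKM at 0 h in WT cells. Psmb4 had 90.0 FPKM at 3 h against 84.9 FPKM at 0 h in KO cells, and 85.1 FPKM at 3 h against 75.2 FPKM at 0 h in WT cells. Psmb1 had 72.5 FPKM at 3 h against 88.6 FPKM at 0 h in KO cells, and 77.6 FPKM at 3 h against 81.2 FPKM at 0 h in WT cells. Psmb3 had 36.1 FPKM at 3 h against 45.5 FPKM at 0 h in KO cells, and 37.7 FPKM at both times in WT cells. Of these 4, Psmb1 and Psmb3 were lower at 3 h and Psmb2 and Psmb4 higher as deposited, and all 4 were higher when rescaled.

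The 19S cap genes differed by a small amount between the times, and their direction depended on the scaling. As deposited, 16 of the 17 were lower at 3 h in KO cells (median log2 difference -0.25) and 15 of the 17 in WT cells (median -0.12). Of all genes, 79.9% (KO) and 78% (WT) were lower. With intervals apart, 14 (KO) and 5 (WT) of the 17 were lower, against 70% (KO) and 64.5% (WT) of all genes. When rescaled by the median ratio all 17 were higher in both, against 45.7% (KO) and 46.1% (WT) of all genes. Relative to the median of all genes, the 19S median was 0.38 higher in KO cells and 0.42 higher in WT cells. None of the 17 passed the size rule under either scaling.

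The 6 ATPases, the ring that unfolds substrates, were all lower at 3 h as deposited in both genotypes and all higher when rescaled. Their log2 differences lay between -0.32 (Psmc6) and -0.22 (Psmc1) in KO cells and between -0.19 (Psmc6) and -0.06 (Psmc5) in WT cells. Psmc6 had 46.3 FPKM at 3 h against 57.9 FPKM at 0 h in KO cells, and 46.2 FPKM at 3 h against 52.7 FPKM at 0 h in WT cells. Psmc5 had 55.3 FPKM at 3 h against 68.4 FPKM at 0 h in KO cells, and 55.8 FPKM at 3 h against 58.3 FPKM at 0 h in WT cells. Psmc1 had 49.3 FPKM at 3 h against 57.8 FPKM at 0 h in KO cells, and 48.0 FPKM at 3 h against 52.6 FPKM at 0 h in WT cells. Psmc2 had 41.8 FPKM at 3 h against 50.2 FPKM at 0 h in KO cells, and 45.9 FPKM at 3 h against 48.8 FPKM at 0 h in WT cells. Psmc3 was the highest ATPase in every library, between 80.3 FPKM (KO, 3 h) and 97.5 FPKM (KO, 0 h), and Psmc4 lay between 51.9 FPKM (KO, 3 h) and 60.9 FPKM (KO, 0 h). As deposited, the lower 3 h level had an interval apart from that at 0 h for all 6 ATPases in KO cells and for 0 of them in WT cells, against 70% (KO) and 64.5% (WT) of all genes.

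Among the 11 non-ATPase subunits, Psmd3 had the lowest log2 difference in KO cells (-0.43), with 39.5 FPKM at 3 h against 53.6 FPKM at 0 h, and had 41.8 FPKM at 3 h against 49.3 FPKM at 0 h in WT cells. Psmd13 had the lowest log2 difference in WT cells (-0.31), with 42.5 FPKM at 3 h against 52.9 FPKM at 0 h, and had 39.4 FPKM at 3 h against 51.2 FPKM at 0 h in KO cells. Psmd11, a lid subunit that clamps cap to core, had 23.3 FPKM at 3 h against 23.3 FPKM at 0 h in KO cells, and 24.4 FPKM at 3 h against 23.5 FPKM at 0 h in WT cells. Psmd14, the deubiquitinating enzyme of the cap, had 45.2 FPKM at 3 h against 50.8 FPKM at 0 h in KO cells, and 46.6 FPKM at 3 h against 49.6 FPKM at 0 h in WT cells. Psmd4, a ubiquitin receptor, had 52.5 FPKM at 3 h against 62.7 FPKM at 0 h in KO cells, and 53.4 FPKM at 3 h against 57.3 FPKM at 0 h in WT cells. Psmd7, the lid subunit that pairs with Psmd14, had 68.8 FPKM at 3 h against 71.0 FPKM at 0 h in KO cells, and 71.8 FPKM at 3 h against 60.6 FPKM at 0 h in WT cells. The large base scaffold subunits Psmd1 and Psmd2 lay between 46.5 and 53.3 FPKM and between 47.1 and 61.1 FPKM over the 4 libraries. The lid subunits Psmd6 and Psmd12 lay between 34.5 and 40.8 FPKM and between 33.7 and 44.1 FPKM, each lowest in KO cells at 3 h and highest in KO cells at 0 h. Psmd8 stood far above the rest of the cap in every library, with 177 FPKM (KO, 3 h), 181 FPKM (WT, 3 h), 205 FPKM (KO, 0 h) and 210.2 FPKM (WT, 0 h).

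**Figure D4:**
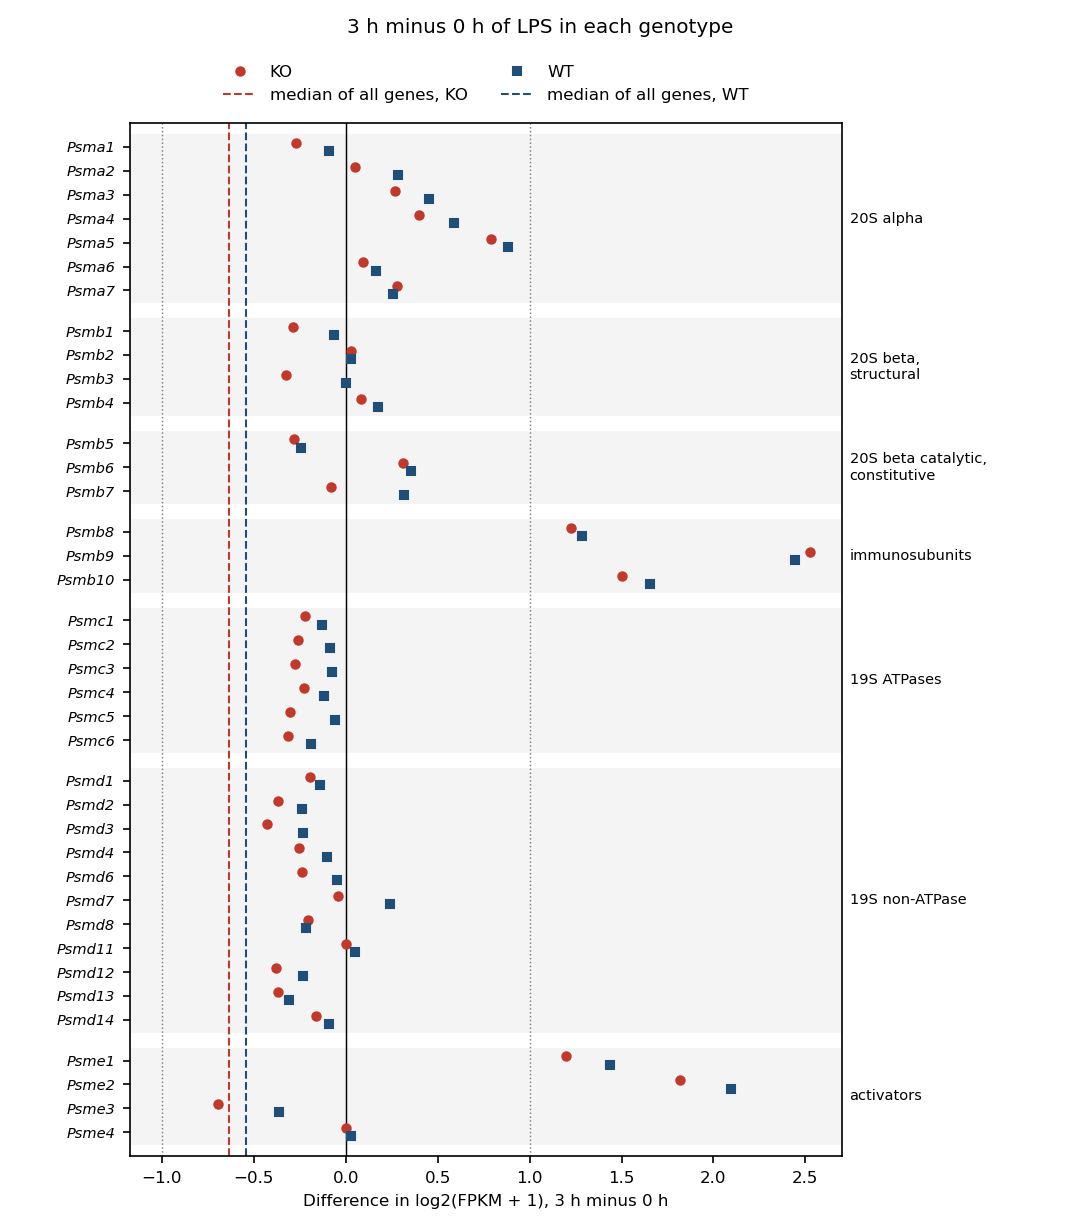
Difference in log2(FPKM + 1), 3 h minus 0 h, for each gene in KO and WT cells; dashed lines are the medians of all genes tested (-0.64 in KO, -0.54 in WT) and dotted lines mark a difference of 1 either way. Psmb8, Psmb9, Psmb10, Psme1 and Psme2 lie above 1 in both genotypes, and apart from Psme3 in KO cells all points lie to the right of the median of their genotype, while the side of 0 for the 19S genes flips when the libraries are rescaled.

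The second comparison sets KO against WT at each time. Dependence on Batf2 was not tested, because each group holds 1 library. None of the 38 passed the size rule at 3 h or at 0 h, where 1.46% (3 h) and 1.71% (0 h) of all genes did. The log2 differences lay between -0.30 (Psmb7) and 0.24 (Psmb6) at 3 h, and between -0.29 (Psmb9) and 0.35 (Psme2) at 0 h. Within this narrow range, the immunosubunits and their partners differed as follows.

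At 3 h the 3 immunosubunits were each lower in KO cells than in WT cells, with intervals that did not overlap: Psmb9 by a log2 difference of -0.21, Psmb8 by -0.15 and Psmb10 by -0.14. Psme1 was lower in KO cells as well, by -0.15. As deposited, 23.8% (Psmb9), 34.4% (Psmb8), 35.2% (Psmb10) and 33.7% (Psme1) of all genes had a lower difference. Rescaled by the median ratio, the 4 differences were smaller, at -0.13, -0.06, -0.06 and -0.07 in the same order. They were still below 0, but whether their intervals stayed apart after rescaling is not given here. Of the 38 genes, 7 were lower and 1 was higher in KO cells with intervals apart at 3 h, where 16.8% of all genes were lower and 8.69% higher by this measure.

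The other genes lower in KO cells with intervals apart were Psmb7, Psmc3 and Psme3. Psmb7 had 90.1 FPKM in KO cells and 111 FPKM in WT cells at 3 h, a 0.81-fold level (0.75 to 0.88). A transcript of Nek6, annotated on the opposite strand, shares 255 bases with Psmb7, and Nek6 had 21.2 FPKM in KO cells and 33.4 FPKM in WT cells at 3 h, and 71.1 FPKM in KO cells and 73.4 FPKM in WT cells at 0 h. Whether the counting used the strand is not given in the sources used here, and the part of Nek6 reads in the Psmb7 value was not tested. Psme3 had 33.4 FPKM in KO cells and 40.8 FPKM in WT cells, 0.82-fold (0.76 to 0.88), and the ATPase Psmc3 had 80.3 FPKM in KO cells and 88.0 FPKM in WT cells.

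Psmb6 was the gene higher in KO cells with intervals apart at 3 h, with 141 FPKM in KO cells and 119 FPKM in WT cells, 1.18-fold (1.10 to 1.27). At 0 h it was higher as well, with 113 FPKM in KO cells and 92.6 FPKM in WT cells, 1.22-fold (1.13 to 1.33). Its replacement Psmb9 was on the other side at both times, 0.86-fold (0.80 to 0.93) at 3 h and 0.81-fold (0.68 to 0.96) at 0 h, although at 0 h the deposited intervals of Psmb9 overlapped. The Psmb9 to Psmb6 ratio was therefore 0.73 (0.66 to 0.81) of the WT ratio in KO cells at 3 h, and 0.66 (0.55 to 0.80) at 0 h. For Psmb8 to Psmb5 the KO ratio was 0.84 (0.75 to 0.94) of the WT ratio at 3 h and 0.85 (0.75 to 0.96) at 0 h. For Psmb10 to Psmb7 it was 1.11 (lower limit at parity, upper limit 1.24) at 3 h and 0.94 (0.81 to 1.08) at 0 h.

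At 0 h the other genes with intervals apart were Psma2, Psmc5 and Psmd7, all higher in KO cells, so that 4 of the 38 were higher and 0 lower, where 9.87% of all genes were higher and 9.26% lower. Psmd7 had 71.0 FPKM in KO cells and 60.6 FPKM in WT cells. Psma2 had 101 FPKM in KO cells and 87.6 FPKM in WT cells, and Psmc5 had 68.4 FPKM in KO cells and 58.3 FPKM in WT cells. By sign alone 31 of the 38 were higher in KO cells at 0 h, with a median of 0.09 (log2), against 49.9% of all genes. When rescaled by the median ratio 29 of 38 were higher, with a median of 0.08 against -0.02 over all genes. As TPM 28 of 38 were higher, with a median of 0.06 against -0.03 over all genes. The KO library at 0 h also had the highest neutrophil marker sum (8622 against 3483 FPKM in WT cells; 7 of 7 markers higher, 4 of them past the size rule) and stromal marker sum (71.5 against 32.2 FPKM; 4 of 4 higher). Their part in the 0 h differences was not tested.

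By sign at 3 h, 30 of the 38 were lower in KO cells, with a median of -0.05 (log2). Of all genes 65.6% were lower, with a median of -0.07. When rescaled by the median ratio 27 of the 38 were higher, with a median of 0.04, where the median of all genes was 0.003. The share of all genes higher after rescaling is not given here. Of the 17 cap genes 15 were lower in KO cells at 3 h as deposited and 3 when rescaled. The neutrophil marker sums at 3 h were 4995 FPKM in KO cells and 5251 FPKM in WT cells.

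**Figure D5:**
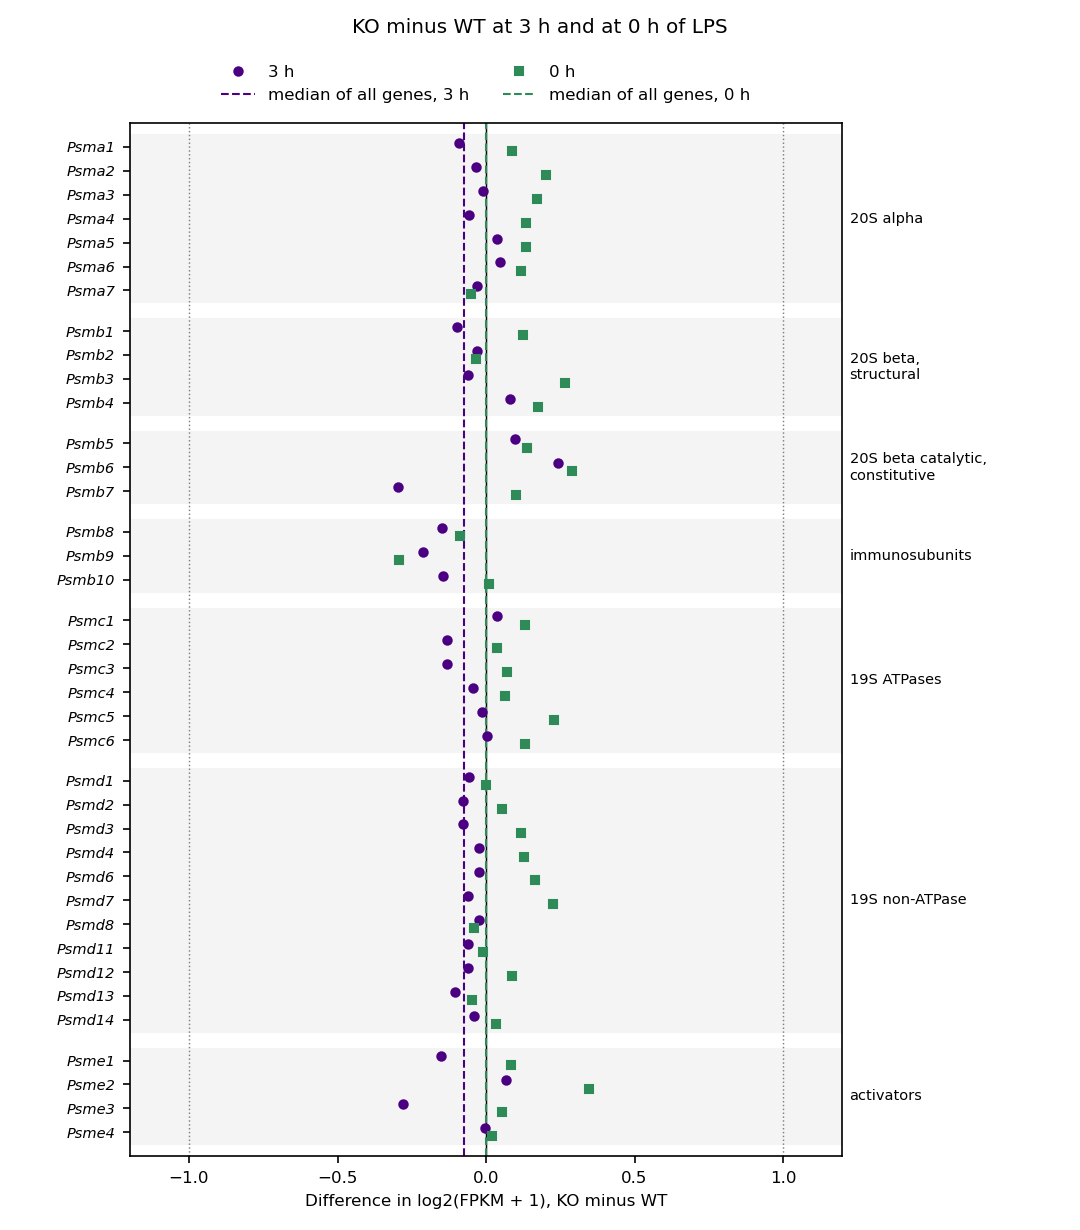
Difference in log2(FPKM + 1), KO minus WT, at 3 h and at 0 h for each gene; dashed lines are the medians of all genes tested (-0.07 at 3 h, and on the zero line at 0 h) and dotted lines mark a difference of 1 either way. All points lie between -0.30 and 0.35, with Psmb9 below 0 and Psmb6 above 0 at both times. Over the 38 genes at 3 h, 30 are lower in KO cells as deposited. When the libraries are rescaled by the median ratio 27 are higher, with the median of all genes at 0.003.

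The third comparison sets the LPS response of KO cells against that of WT cells. None of the 38 differed by the size rule, here an absolute difference between responses of at least 1 with an interval that excludes 0, which 2.47% of all genes met. The differences lay between -0.40 (Psmb7) and 0.08 (Psmb9), so that the gene with the strongest rise had nearly the same response in both genotypes (log2 difference 2.53 in KO cells and 2.44 in WT cells; difference 0.08, interval -0.18 to 0.34). For Psmb8 the difference between responses was -0.06 (-0.21 to 0.09) and for Psmb10 -0.16 (-0.34 to 0.03).

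Psme1 responded less in KO cells, by -0.23 (-0.38 to -0.09), which was -0.13 when rescaled by the median ratio. Psme2 gave -0.28 (-0.70 to 0.14), and Psme3 gave -0.33 (-0.48 to -0.19). In all, 34 of the 38 differences were below 0 as deposited, against 63.4% of all genes. When rescaled by the median ratio 22 were below 0, with a median of -0.04 against 0.01 over all genes. As deposited, the interval excluded 0 for 14 of the 38, all with the lower response in KO cells. Of all genes 21.2% had such a lower response and 9.3% a higher one. The neutrophil marker sum was 4995 FPKM at 3 h against 8622 FPKM at 0 h in KO cells, and 5251 FPKM at 3 h against 3483 FPKM at 0 h in WT cells; its part in these differences was not tested. Across the 38 genes, which are not independent replicates, the LPS responses of the 2 genotypes had a Pearson correlation of 0.99 and a Spearman correlation of 0.89, against 0.92 and 0.91 over 10661 genes. Without the 5 risen genes these were 0.93 and 0.84 over 33.

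The genes around the proteasome were read from lists of the same pathway. Of the 8 class I presentation genes beside the 38, 5 rose in KO cells and 5 in WT cells, with no gene lower, against 7.85% (KO) and 7.56% (WT) of all genes that rose. When rescaled by the median ratio 8 rose in each, against 13% (KO) and 11.9% (WT) of all genes. Tap1, the neighbour of Psmb9, had 182 FPKM at 3 h against 14.3 FPKM at 0 h in KO cells, and 189 FPKM at 3 h against 17.5 FPKM at 0 h in WT cells. Tap2, its partner in the peptide transporter, had 103 FPKM at 3 h against 23.7 FPKM at 0 h in KO cells, and 112 FPKM at 3 h against 26.8 FPKM at 0 h in WT cells. Nlrc5, a transactivator of class I genes, had 42.3 FPKM at 3 h against 3.23 FPKM at 0 h in KO cells, and 42.9 FPKM at 3 h against 4.59 FPKM at 0 h in WT cells. Erap1, a trimming peptidase, had the smallest KO difference of the list (0.59, log2) and B2m, the class I light chain, the smallest in WT cells (0.70).

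Of 5 genes known to respond to interferon-gamma, 5 rose in KO cells and 4 in WT cells between 0 h and 3 h, beside the same shares of all genes as deposited. Irf1, a transcription factor known to act on immunosubunit genes, had 370.3 FPKM at 3 h against 12.6 FPKM at 0 h in KO cells, and 419 FPKM at 3 h against 12.4 FPKM at 0 h in WT cells. Cxcl9, the gene of the list with the highest difference, had 1058 FPKM at 3 h against 0.12 FPKM at 0 h in KO cells, and 1249 FPKM at 3 h against 0.62 FPKM at 0 h in WT cells. Irf1 and Cxcl9 were thus far lower at 0 h than at 3 h although the labels give interferon-gamma for every group. Gbp2 and Irf8 were also far lower at 0 h in both genotypes. Ciita was the gene of the list that did not pass the size rule in WT cells, with 26.2 FPKM at 3 h against 18.8 FPKM at 0 h. In KO cells Ciita rose 2.63-fold, from 9.52 FPKM at 0 h.

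Of the 9 assembly chaperones and inhibitor genes measured, none rose as deposited. In KO cells 4 fell (Psmg1, Psmg2, Psmg3 and Psmd5) and in WT cells 2 fell (Psmg1 and Psmg3), where 28% (KO) and 23.2% (WT) of all genes fell. The median log2 difference of the 9 was -0.89 in KO cells and -0.71 in WT cells, against -0.64 and -0.54 over all genes. None of these falls passed when rescaled, where 1 gene rose in each genotype (Psmd10). Psmg1, which pairs with Psmg2 to assemble the alpha ring, had 4.12 FPKM at 3 h against 9.29 FPKM at 0 h in KO cells, and 3.52 FPKM at 3 h against 9.02 FPKM at 0 h in WT cells. Psmg2 had 1.70 FPKM at 3 h against 5.85 FPKM at 0 h in KO cells, and 3.11 FPKM at 3 h against 6.00 FPKM at 0 h in WT cells. Pomp, the maturation factor that helps the beta subunits onto the alpha ring, had 197 FPKM at 3 h against 169.7 FPKM at 0 h in KO cells, and 201 FPKM at 3 h against 152 FPKM at 0 h in WT cells. Psmd10 (gankyrin), an ATPase chaperone, had the highest log2 difference of the list, 0.48 in KO cells and 0.88 in WT cells, with 33.7 FPKM at 3 h against 23.8 FPKM at 0 h in KO cells, and 34.7 FPKM at 3 h against 18.4 FPKM at 0 h in WT cells.

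Of the 11 proteasome-associated genes, 2 fell in KO cells (Uchl5, a deubiquitinase of the cap, and the shuttle factor Ubqln2) and 1 in WT cells (Ubqln2), a smaller share than the 28% (KO) and 23.2% (WT) of all genes that fell, and none passed when rescaled. Of the 6 ubiquitin and E1 genes none passed in either genotype. Nfe2l1, the transcription factor known to raise subunit genes when proteasome activity is low, had 62.6 FPKM at 3 h against 58.5 FPKM at 0 h in KO cells, and 62.8 FPKM at 3 h against 61.4 FPKM at 0 h in WT cells. Ddi2, the protease that activates Nfe2l1, had 5.49 FPKM at 3 h against 29.2 FPKM at 0 h in KO cells, and 8.32 FPKM at 3 h against 32.6 FPKM at 0 h in WT cells, and was low at 3 h in both genotypes. The thymus subunit Psmb11 was at most 0.0076 FPKM in every library, and the testis subunit Psma8 had 0.64 FPKM (KO, 3 h), 0.53 FPKM (WT, 3 h), 2.41 FPKM (KO, 0 h) and 1.88 FPKM (WT, 0 h).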

How the data were processed

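Per the labels, total RNA was made into strand-specific libraries and sequenced from one end. For each RefSeq accession the authors deposited FPKM and its 95% interval. Per the submitters' processing notes, TopHat2 (with Bowtie and SAMtools), mm9 and Cufflinks were used (no version is given in the sources used here). All loci were compared with GRCm38: 97.8% of entries lay within 1000 bases of the gene of their name, so coordinates are given on that build.

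Accessions were named from RefSeq and GENCODE (217 of 33841 entries kept their accession). FPKM and the limits of its deposited interval were each summed per symbol. Of the 152 values of the 38 genes, 120 lay outside their own deposited interval, so printed intervals were moved onto the FPKM with their relative width (2.82% to 21.4% to either side). Differences are of log2(FPKM + 1), with the size rule given in the text. Intervals of folds and ratios combine these relative widths in quadrature on the log scale. Depth was estimated from entries whose interval marks a single read. Copies were searched with blastn 2.17.0 (at least 95% identity over 100 bases). Python 3.11.15 with pandas 2.3.3 was used. The size rule was tried on simulated data with counting error only, so spread between replicates and shared reads were not covered.

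Alternatives were other pseudocounts (0.1 and 5), no filter, rescaling by the median ratio of 9017 genes or to TPM, the highest entry per symbol, and Psme2 summed with Psme2b, which was chosen after seeing the data. All 38 genes are reported. A motif and a gene of the interferon-gamma list are not reported here. Values are given in full for the catalytic subunits, the activators and the highest and lowest gene of each role in each comparison, and other genes in full were chosen after their values were seen. The 38 genes and the lists were chosen with earlier results of these data known. Replicates, and so tests between groups, were not available.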

Additional observations from a re-analysis of the deposited data

Results flagged for a closer look

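For 2 of the 38 genes the LPS response had opposite signs in the 2 genotypes as deposited, with an interval of the difference that excludes 0. Psmb7 had a log2 difference of -0.08 in KO cells and 0.31 in WT cells at 3 h minus 0 h, so that the KO response minus the WT response was -0.40 (-0.56 to -0.23). Psmd7 had -0.04 in KO cells and 0.24 in WT cells, a difference of -0.28 (-0.44 to -0.13). With 1 library per group these differences were not tested. In KO cells the deposited intervals at 3 h and 0 h overlapped for both genes. The KO level at 3 h was 0.94-fold (0.87 to 1.02) of that at 0 h for Psmb7 and 0.97-fold (0.90 to 1.04) for Psmd7. The part of Nek6 reads in the Psmb7 values was not tested either. When rescaled by the median ratio both responses were above 0 in both genotypes, at 0.55 (KO) and 0.85 (WT) for Psmb7 and 0.59 (KO) and 0.77 (WT) for Psmd7, and the differences were -0.29 and -0.18.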

How the results depend on the processing

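No paired analysis was possible because each group holds 1 library. For the 38 genes, the counts past the size rule stayed within 1.5 times of their reported values, or were 0 in both, under every alternative run. The subunit ratios were rerun with the highest entry per symbol only, which could not change them because each of these genes has 1 entry. Among the lists of other genes, rescaling by the median ratio moved the class I genes risen to 8, against 5 as deposited, in each genotype, the assembly chaperones fallen to 0, against 4 (KO) and 2 (WT), and the proteasome-associated genes fallen to 0, against 2 (KO) and 1 (WT). Over 190 differences of the 38 genes in 5 comparisons, rescaling by the median ratio moved 80 beyond their interval and changed the sign of 74, and added 4 calls (Psma4 and Psma5 in each genotype). TPM changed 5 signs, the pseudocount of 5 moved 1 value, and the pseudocount of 0.1, the missing filter, the highest entry and the sum with Psme2b moved none; no call was lost. Rescaling assumes that the median gene did not respond to LPS, which was not tested. The widest interval of the 38 genes was that of Psme2 in WT cells at 0 h, 21.4% to either side. Its limits are sums over 2 entries, which can make it wider than counting error alone.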
